A study of Mus musculus with 7 samples.

Results

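R-loop resolving factors are enzymes and RNA-packaging proteins that remove RNA-DNA hybrids or keep them from forming. The expression of 9 such genes was examined in hematopoietic progenitors with 1 Ddx41 allele. The genes were taken by symbol from a table of 24421 gene symbols, and all 9 were found and passed the filter on low counts. They comprise the 4 RNase H genes Rnaseh1, Rnaseh2a, Rnaseh2b and Rnaseh2c, the RNA helicase gene Aqr (Aquarius), the topoisomerase gene Top1, and the THO complex genes Thoc1, Thoc2 and Thoc5. RNA-seq was performed on LSK cells (Lin-Sca1+Kit+), a sorted marrow fraction enriched in hematopoietic stem and multipotent progenitor cells. The 4 Ddx41+/+ samples (replicates 1 to 4) and the 3 Ddx41+/- samples (replicates 6 to 8) came from lethally irradiated BoyJ recipients of donor marrow. Donor marrow of both genotypes carried RosaCreERT2, a tamoxifen-activated recombinase driven by a ubiquitous promoter, and the Ddx41+/- donors also carried 1 floxed Ddx41 allele. All recipients were injected with 1 mg tamoxifen per day in 2 rounds of 5 days, beginning right after the transplant, and marrow was taken 8 weeks post-transplant. Excision of the floxed allele in these samples was read here from the Ddx41 counts alone. The age of the animals is not given in the sources used here. The sort markers named for these samples do not separate donor from residual recipient cells.

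An R-loop forms when nascent RNA pairs with the DNA template strand and leaves the other strand unpaired. RNase H1 and the 3-subunit RNase H2 cut the RNA of such hybrids, and RNase H2 also removes single ribonucleotides from DNA. Topoisomerase 1 relaxes the negative supercoils behind RNA polymerase that favor hybrid formation, the THO complex coats nascent RNA for export, and Aquarius is an intron-binding helicase of the spliceosome. DDX41 itself is a DEAD-box helicase with a described part in limiting R-loops, which gives the comparison its question: whether transcripts of the other factors differ when 1 Ddx41 allele is lost. R-loops themselves were not measured here.

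The Ddx41 transcript went with the labels in all samples. It fell from a mean of 97.9 CPM (read counts scaled to a common library size, as counts-per-million; SD 6.43, 4 samples) to 67.3 CPM (SD 2.63, 3 samples), a log2 fold change of -0.54 with an SE of 0.071 (edgeR adjusted p = 0.0052). For Ddx41, the Ddx41+/- mean was 68.8% of the Ddx41+/+ mean (95% interval from the fit 61.9% to 76.4%). The share of cells with an excised allele, and that of residual recipient cells, was not tested. Total counts per sample were between 32234499 and 43751290, and the 9 genes had between 940 and 8527 counts in each sample. The LSK-defining markers were detected in every sample. Kit was at 427.1 to 505.1 CPM and Ly6a, which encodes Sca-1, at 13.3 to 30.5 CPM. The summed level of 9 LSK markers was 1673 to 1857 CPM in Ddx41+/+ and 1555 to 1702 CPM in Ddx41+/- samples. At an unadjusted p under 0.05, 6 of the 9 were lower, against 4.93% of all genes tested, with 0 passing by edgeR at an adjusted p under 0.05. The 6 were Cd34, Flt3, Slamf1, Procr, Mecom and Hlf. Log2 fold changes of the others were 0.0041 for Kit, -0.011 for Ly6a and -0.039 for Cd48. Most genes of a neutrophil list moved with genotype. The sum of 10 neutrophil markers was 741 to 1255 CPM in Ddx41+/+ and 1335 to 2283 CPM in Ddx41+/- samples. Of the 10, 9 were higher at an unadjusted p under 0.05, against 5.7% of all genes tested. Among these, 1 passed the adjusted test, and none of the 10 was at 0 in any sample. The remaining gene, Cxcr2, was lower on average (log2 fold change -0.24, edgeR unadjusted p = 0.22), with overlap. The sums overlapped between genotypes for the 7 macrophage (53.3 to 73.8 against 59.8 to 86.0 CPM), 8 B-lineage (42.7 to 63.6 against 57.2 to 78.8 CPM), 7 T and NK cell (3.46 to 4.68 against 2.89 to 5.01 CPM), 7 late erythroid (24.7 to 48.7 against 35.4 to 58.02 CPM) and 7 stroma and endothelium markers (146.6 to 168.9 against 161.8 to 176.9 CPM). The globin genes Hbb-bt, Hbb-bs, Hba-a1 and Hba-a2 of the erythroid list were at 0 in every sample, and Cd3d, Cd3e, Cd3g and Ncr1 were at 0 in some samples. Pecam1, at 132.5 to 156.0 CPM in Ddx41+/+ samples, made up most of the stroma and endothelium sum. In Ddx41+/- replicate 8, Col1a1 was at 14.9 CPM and Col1a2 at 16.8 CPM. No other sample was above 2.2 CPM for Col1a1 or 5.03 CPM for Col1a2. Of the 7 genes of that list, 5 had a positive log2 fold change and 2 a negative one. The part of the neutrophil and stromal transcripts in the results below was not tested. A change in the mix of cells and a change of RNA per cell cannot be told apart in sorted bulk samples.

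None of the 9 genes passed the test between genotypes over all 13340 genes tested. Their edgeR adjusted p-values, by the Benjamini-Hochberg (BH) method, ranged from 0.3 for Top1 to 0.961 for Rnaseh2c. Across the table, 29 genes (0.217%) passed at an adjusted p under 0.05. DESeq2, limma-voom and every fit that left out 1 sample also called 0 of the 9 genes. At an unadjusted p under 0.05 there were 3 of 9, Aqr, Top1 and Thoc2, all with a higher mean in Ddx41+/- samples. That count was 2 after a correction for GC content and longest-transcript length and 0 after one for GC content and exon union length. Both corrections are described with the transcript lengths. The share across the table at that level was 10.6%, of which 5.7% of the genes tested were higher in Ddx41+/- and 4.93% lower. The groups did not overlap in CPM for 1 of the 9 genes, Aqr, against 10.1% of all genes (4.85% in the higher direction). The median log2 fold change of the 9 genes was 0.016, and that of all genes was -0.0048.

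**Figure D1:**
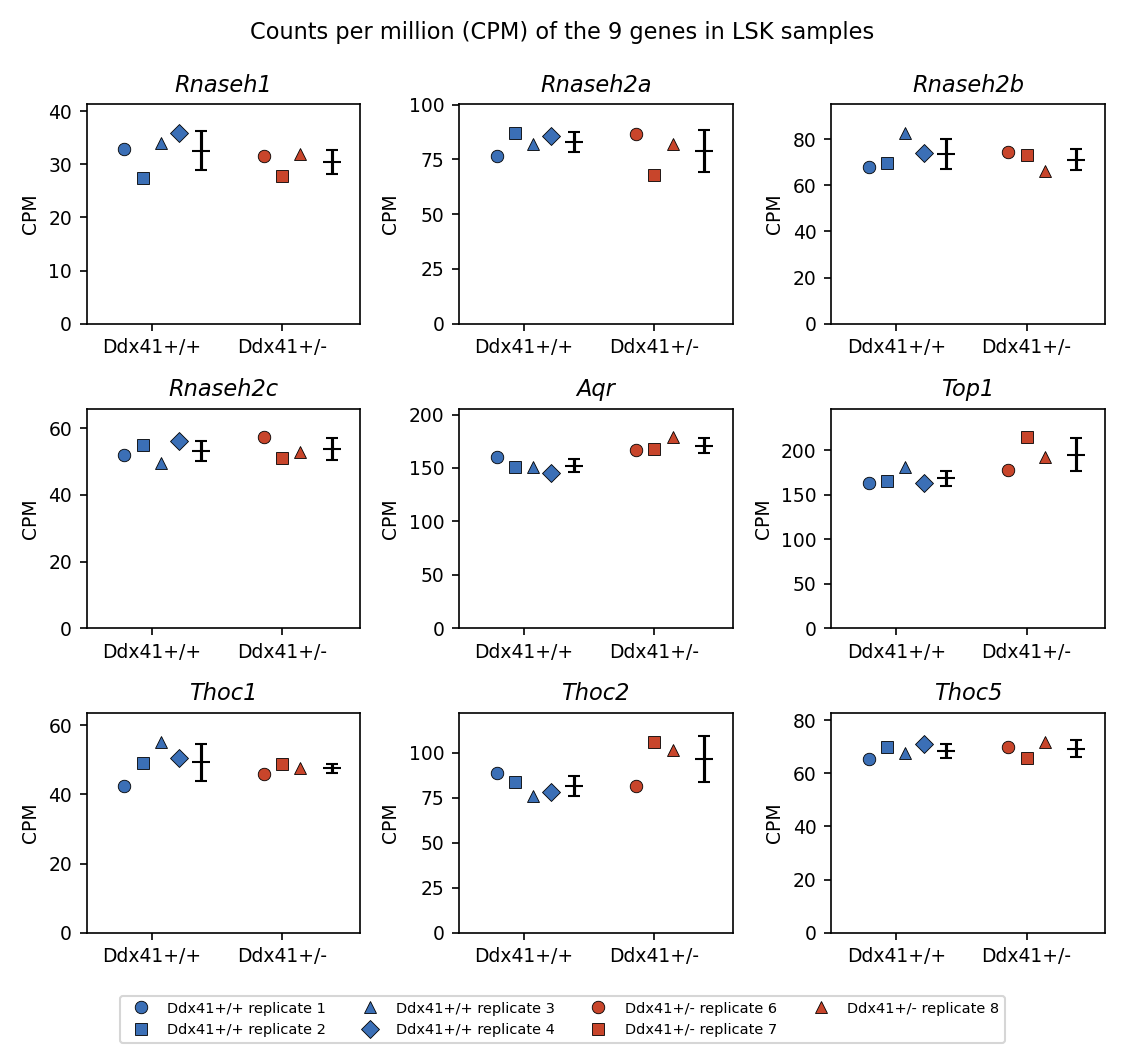
CPM (y axis from 0) of each of the 9 genes, with 1 symbol per sample (4 Ddx41+/+ in blue, 3 Ddx41+/- in red) and the mean with SD in black beside each group. Aqr is the gene whose groups do not overlap, Top1 and Thoc2 are highest in Ddx41+/- replicate 7, and the 4 RNase H genes overlap between genotypes.

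**Figure D2:**
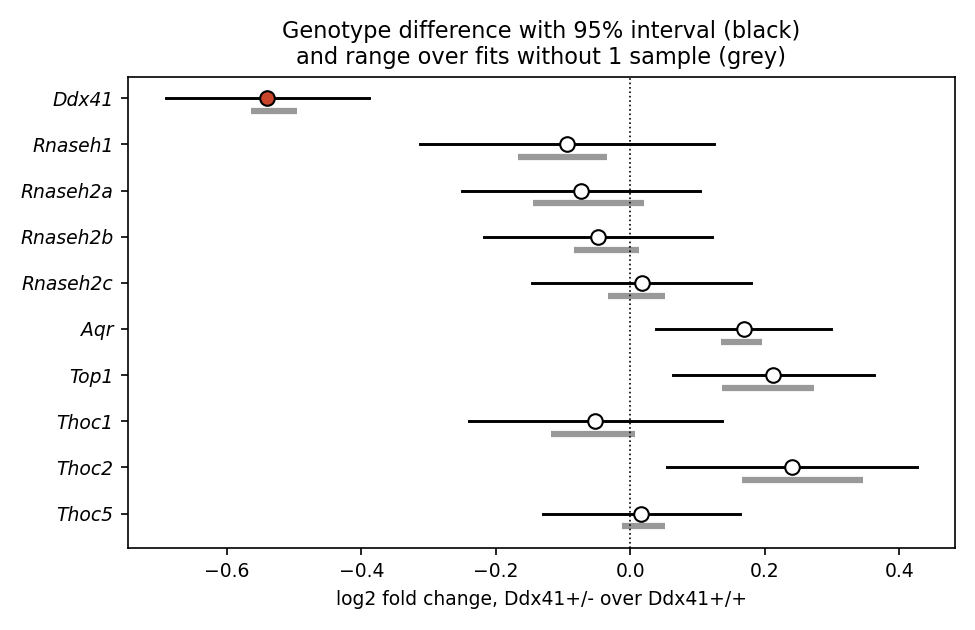
Log2 fold change of Ddx41+/- over Ddx41+/+ (x axis) for Ddx41 and the 9 genes, with the 95% interval of the edgeR fit in black and the range over the 7 fits without 1 sample in grey. A filled point marks an adjusted p under 0.05, which only Ddx41 reached, and the intervals of Aqr, Top1 and Thoc2 lie above 0.

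The RNase H enzymes were the first group compared. Rnaseh1 (ENSMUSG00000020630, chromosome 12, 28649602 to 28659589, plus strand, GRCm38) encodes the single-subunit enzyme that degrades the RNA of hybrids in the nucleus and in mitochondria. It was at 33.0, 27.4, 34.0 and 35.97 CPM in Ddx41+/+ replicates 1 to 4 and at 31.6, 27.9 and 31.9 CPM in Ddx41+/- replicates 6 to 8. The Ddx41+/- values lay within the range of the Ddx41+/+ values. The Ddx41+/- mean was 93.6% of the Ddx41+/+ mean, with a 95% interval of 80.5% to 109% from the fit (log2 fold change -0.094, SE 0.10, edgeR adjusted p = 0.799). When Ddx41+/+ replicate 2 was left out, the log2 fold change was -0.17, and when Ddx41+/- replicate 7 was left out, it was -0.035.

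RNase H2 needs all 3 subunits for activity. Rnaseh2a (ENSMUSG00000052926, chromosome 8, 84956610 to 84969767, minus strand) encodes the catalytic subunit. It was at 76.6, 87.2, 82.2 and 85.9 CPM in the Ddx41+/+ and at 86.4, 68.0 and 82.1 CPM in the Ddx41+/- samples. Replicate 7 was the lowest of all samples, and the other Ddx41+/- samples were inside the Ddx41+/+ range. The log2 fold change was -0.073 (SE 0.083, edgeR adjusted p = 0.809), and without replicate 7 it was 0.021. Rnaseh2b (ENSMUSG00000021932, chromosome 14, 62292589 to 62372992, plus strand) encodes a scaffold subunit that binds the sliding clamp PCNA. Its level averaged 73.6 CPM (SD 6.61) over the 4 Ddx41+/+ samples and 71.1 CPM (SD 4.51) over the 3 Ddx41+/- samples. Ddx41+/+ replicate 3 was the highest sample at 82.8 CPM, and the log2 fold change of -0.048 (SE 0.080, edgeR adjusted p = 0.881) was 0.013 without it and 0.0034 without Ddx41+/- replicate 8. Rnaseh2c (ENSMUSG00000024925, chromosome 19, 5601873 to 5607019, plus strand) encodes the other scaffold subunit. The mean was 53.1 CPM (SD 2.97) over the 4 Ddx41+/+ samples and 53.7 CPM (SD 3.23) over the 3 Ddx41+/- samples (log2 fold change 0.017, SE 0.077, edgeR adjusted p = 0.961). Its sign turned without Ddx41+/+ replicate 3 (-0.014) or Ddx41+/- replicate 6 (-0.033). Of the exonic bases of Rnaseh2c, 24.8% overlap exons of Kat5 on the opposite strand, and 5.04% of those of Rnaseh2a overlap Prdx2, also on the opposite strand. Whether strand was used in counting is not stated, so reads from these stretches cannot be assigned with certainty.

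The within-sample ratio of RNase H2 transcripts needs no scaling between libraries. Counts of Rnaseh2a over Rnaseh2c were 1.48, 1.59, 1.66 and 1.53 in the Ddx41+/+ and 1.51, 1.33 and 1.55 in the Ddx41+/- samples. Replicate 7 had the lowest ratio, and the genotypes overlapped. Counts of Rnaseh2b over Rnaseh2c were between 1.27 and 1.67 in Ddx41+/+ and between 1.25 and 1.43 in Ddx41+/- samples, again with overlap.

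Aquarius belongs to a complex that binds introns upstream of the branch point during splicing. Aqr (ENSMUSG00000040383, chromosome 2, 114101170 to 114187024, minus strand) was at 160.5, 151.0, 151.3 and 145.6 CPM in Ddx41+/+ replicates 1 to 4. In Ddx41+/- replicates 6 to 8 it was at 166.5, 167.6 and 178.8 CPM. Every Ddx41+/- sample was above every Ddx41+/+ sample, and the closest pair were replicate 6 and Ddx41+/+ replicate 1. The Ddx41+/- mean was 112.4% of the Ddx41+/+ mean (95% interval 102.7% to 123.0%). On the log2 scale the difference was 0.17 (SE 0.061, edgeR unadjusted p = 0.0142, adjusted p = 0.332). The exact two-sided permutation test of the CPM values gave p = 0.0571, where the smallest p that 4 against 3 samples allow is 0.0286. Without Ddx41+/- replicate 8 the log2 fold change was 0.13 (edgeR unadjusted p = 0.0743).

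Topoisomerase 1 nicks and reseals 1 DNA strand to release torsion. Top1 (ENSMUSG00000070544, chromosome 2, 160645888 to 160722764, plus strand) was at 163.2, 165.2, 181.1 and 163.6 CPM in the Ddx41+/+ samples and at 178.1, 214.6 and 192.2 CPM in the Ddx41+/- samples. Replicates 7 and 8 were above all Ddx41+/+ samples, whereas replicate 6 was below Ddx41+/+ replicate 3. The Ddx41+/- mean was 115.9% of the Ddx41+/+ mean (95% interval 104.5% to 128.5%). This was the smallest unadjusted p of the 9 genes, 0.00825 (log2 fold change 0.21, SE 0.070, edgeR adjusted p = 0.3), and the exact two-sided permutation p was 0.0857. Replicate 7 carried part of the difference, since without it the log2 fold change was 0.14 (edgeR unadjusted p = 0.0686, adjusted p = 0.726).

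The THO complex was represented by 3 subunits, with no common direction. Thoc2 (ENSMUSG00000037475, chromosome X, 41794991 to 41920674, minus strand) encodes its largest subunit and scaffold. It was at 88.6, 83.7, 76.1 and 78.3 CPM in the Ddx41+/+ and at 81.7, 106.1 and 101.7 CPM in the Ddx41+/- samples. Replicates 7 and 8 were above every Ddx41+/+ sample, and replicate 6 was inside the Ddx41+/+ range. The Ddx41+/- mean was 118.2% of the Ddx41+/+ mean (95% interval 103.8% to 134.4%), with a log2 fold change of 0.24 (SE 0.088), an unadjusted p of 0.0148 and an adjusted p of 0.335 by edgeR. The exact two-sided permutation p was 0.143. Left-out samples moved it from 0.17 without replicate 7 (edgeR unadjusted p = 0.0921) and 0.20 without replicate 8 (edgeR unadjusted p = 0.0626) to 0.35 without replicate 6 (edgeR unadjusted p = 0.0008, adjusted p = 0.1).

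Thoc1 (ENSMUSG00000024287, chromosome 18, 9957906 to 9995489, plus strand) encodes the THO subunit that contacts elongating RNA polymerase. It was at 42.4, 48.9, 55.3 and 50.5 CPM in the Ddx41+/+ and at 46.0, 48.8 and 47.7 CPM in the Ddx41+/- samples, all 3 inside the Ddx41+/+ range. The log2 fold change was -0.052 (SE 0.089, edgeR adjusted p = 0.883), and without Ddx41+/+ replicate 3 it was 0.0069. Exons of Usp14 on the opposite strand overlap 24.3% of the exonic bases of Thoc1, with the same uncertainty as for Rnaseh2c.

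Thoc5 (ENSMUSG00000034274, chromosome 11, 4895320 to 4928867, plus strand), a subunit with a described part in hematopoietic stem cell survival, averaged 68.5 CPM (SD 2.54) over the 4 Ddx41+/+ samples and 69.2 CPM (SD 3.21) over the 3 Ddx41+/- samples. Its log2 fold change of 0.016 (SE 0.069, edgeR adjusted p = 0.959) turned without Ddx41+/+ replicate 1 (-0.0059) or Ddx41+/- replicate 8 (-0.013). Thoc5 had the lowest coefficient of variation of the 9 genes among Ddx41+/+ samples, 3.7%. The ratio of Thoc2 to Thoc5 counts was 1.36, 1.20, 1.13 and 1.10 in the Ddx41+/+ samples and 1.17, 1.61 and 1.41 in the Ddx41+/- samples. Replicates 7 and 8 had the highest ratios, and replicate 6 was inside the Ddx41+/+ range.

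Over the 4 RNase H genes, Thoc1 and Thoc5, the widest bounds of the 95% intervals of the genotype ratio were 80.5% and 113.3%. The interval was narrowest on the log2 scale for Thoc5, at 91.4% to 111.9%, and that of Rnaseh2c was 90.4% to 113.3%. All 6 intervals included no difference, which does not show that the levels were equal.

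The upstream sequences of Aqr, Top1 and Thoc2 are given because these were the 3 genes with an unadjusted p under 0.05. RefSeq promoter windows of 250 bases before to 50 after a start site (GRCm38.p6, 5′ to 3′ on the gene's strand) were found for 6 of the 9 genes. Entries for Rnaseh1, Rnaseh2b and Thoc1 were missing. The windows lie at chr2:114175290-114175589 on the minus strand for Aqr, chr2:160645647-160645946 on the plus strand for Top1 and chrX:41911852-41912151 on the minus strand for Thoc2. The GENCODE models of Aqr and Thoc2 begin further upstream than these starts. Capitals mark matches, on either strand, to the 8 motifs searched, the GC box (GGGCGG), the CCAAT box (CCAAT), the E-box (CACGTG), the ETS motif (CCGGAAG), the cAMP response element (TGACGTCA), the YY1 motif (AAGATGG), the TATA box (TATAAA) and the E2F motif (TTTCGCG).
Aqr: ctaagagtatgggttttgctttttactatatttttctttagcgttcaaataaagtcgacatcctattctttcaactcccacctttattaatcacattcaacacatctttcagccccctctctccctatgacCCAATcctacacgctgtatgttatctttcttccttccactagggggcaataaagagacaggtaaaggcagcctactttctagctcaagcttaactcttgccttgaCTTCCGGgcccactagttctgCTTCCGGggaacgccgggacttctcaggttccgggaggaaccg
Top1: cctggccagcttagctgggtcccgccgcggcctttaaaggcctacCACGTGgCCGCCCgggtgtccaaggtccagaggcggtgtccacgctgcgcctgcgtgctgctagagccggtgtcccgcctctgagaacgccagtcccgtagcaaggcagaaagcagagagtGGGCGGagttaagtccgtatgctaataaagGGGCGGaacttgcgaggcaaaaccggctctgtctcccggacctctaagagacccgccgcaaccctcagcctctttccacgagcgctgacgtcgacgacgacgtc
Thoc2: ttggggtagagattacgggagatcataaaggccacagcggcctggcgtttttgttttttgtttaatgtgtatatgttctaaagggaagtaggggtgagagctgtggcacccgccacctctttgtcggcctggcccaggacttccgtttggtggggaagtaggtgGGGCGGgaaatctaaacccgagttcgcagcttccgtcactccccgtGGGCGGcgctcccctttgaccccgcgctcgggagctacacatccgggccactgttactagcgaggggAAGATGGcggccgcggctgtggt

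No motif of the 8 was found in all 3 windows, and Top1 and Thoc2 both held GC boxes. Aqr held a CCAAT box at -119 and 2 ETS matches at -14 and 8, counted from the start site, and 9 CG dinucleotides. Top1 held an E-box at -205 and GC boxes at -198, -84 and -54, with 29 CG dinucleotides, the most of the 6 genes. Thoc2 held GC boxes at -86 and -40 and a YY1 match at 28, with 21 CG dinucleotides. The median over 32851 promoter windows was 7. Of all windows, 35.7% held a GC box, 37.4% a CCAAT box, 7.15% an E-box, 8.86% an ETS motif, 1.79% a cAMP response element, 6.34% a YY1 motif, 13.6% a TATA box and 0.849% an E2F motif. Among the other 3 windows, Rnaseh2a held 2 GC boxes, a CCAAT box and an E2F match, Thoc5 held 2 ETS matches and Rnaseh2c held none. These are matches of letters, and binding was not measured.

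Transcript length moved with the genotype difference across the table. Aqr, Top1 and Thoc2 have the longest exon unions of the 9 genes, 11805, 10426 and 12666 bases, and Thoc2 has the lowest GC content, 37.5% of its longest transcript. Of the 1225 genes tested with an exon union of at least 10 kb, 72.2% had a positive log2 fold change (median 0.086), against 46.4% of the 12018 shorter genes (median -0.013). Of these long genes, 182 were higher and 30 lower in Ddx41+/- at an unadjusted p under 0.05. By the longest transcript, Aqr (4888 bases) and Top1 (3856 bases) were shorter than Rnaseh2b (4983 bases), and Thoc2 was the longest of the 9 at 7622 bases. Per-sample trends with GC content and length were therefore taken out in 2 ways, both added after the values were seen. With exon union length, none of the 9 genes had an unadjusted p under 0.05. The log2 fold change went from 0.17 to 0.093 for Aqr (edgeR unadjusted p = 0.0808, adjusted p = 0.514), from 0.21 to 0.12 for Top1 (edgeR unadjusted p = 0.0624, adjusted p = 0.47) and from 0.24 to 0.084 for Thoc2 (edgeR unadjusted p = 0.256, adjusted p = 0.717). With longest-transcript length it was 0.15 for Aqr (edgeR unadjusted p = 0.0084), 0.18 for Top1 (edgeR unadjusted p = 0.00403) and 0.077 for Thoc2 (edgeR unadjusted p = 0.273). The median log2 fold change of the 1225 long genes was -0.012 after the first correction and -0.0066 after the second. The differences of Aqr and Top1 thus depended on the definition of length, and that of Thoc2 was small under both corrections. The gene models behind the counts are not stated, and which length applies was not tested.

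**Figure D3:**
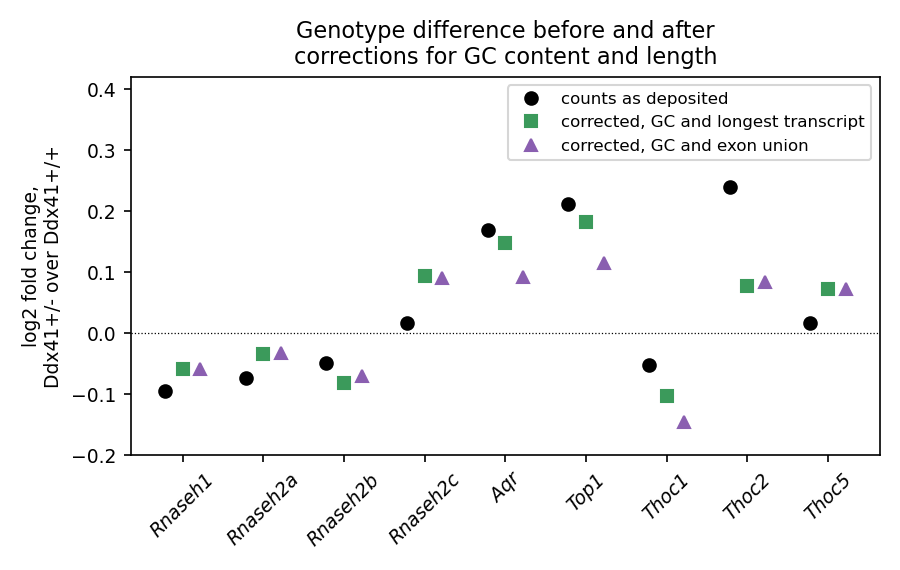
Log2 fold change of Ddx41+/- over Ddx41+/+ (y axis) of the 9 genes from the counts as deposited (black circles), after correction for GC content and longest-transcript length (green squares) and after correction for GC content and exon union length (purple triangles). Aqr and Top1 are at 0.15 and 0.18 with the longest transcript but at 0.093 and 0.12 with the exon union, and Thoc2 goes from 0.24 to 0.077 and 0.084.

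Levels of different genes were compared per length, as CPM per kilobase of exon union (RPKM) over all 7 samples. Rnaseh2c was highest at a mean of 31.1 RPKM, followed by Thoc5 at 24.1, Rnaseh2a at 23.1, Top1 at 17.2, Aqr at 13.6, Rnaseh1 at 12.2, Rnaseh2b at 11.6, Thoc2 at 6.95 and Thoc1 at 5.43 RPKM. In this order the sample ranges of neighbors were separate between Rnaseh2c and Thoc5, between Top1 and Aqr, and between Rnaseh2b and Thoc2, and overlapped in the other 5 pairs. The transcript models behind the counts are not stated, and the order depended on them. With the longest transcript as length, Top1 was second at 46.6 RPKM, with a range that overlapped that of Rnaseh2c (47.4 RPKM), and Aqr came next at 32.8 RPKM. Rnaseh2c was above Rnaseh2b with either length, at 47.4 against 14.6 RPKM with the longest transcript. Thoc1 and Thoc2 were the lowest pair with either length.

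Pairs of the 9 genes were compared over the 7 samples. Of 36 pairs, Aqr and Thoc2 had the highest Pearson's r of log2 CPM (0.79, Spearman's rho 0.71). After each genotype's mean was taken out, r was 0.55. The lowest was Rnaseh2a with Thoc2 (r = -0.71, rho -0.61, r = -0.70 after genotype means were taken out). The order differed once genotype means were taken out. Rnaseh2a with Thoc5 then had the highest r (0.88), Rnaseh2a with Rnaseh2c, its partner subunit, had 0.73, and Rnaseh2c with Top1 had the lowest (-0.84). These values are descriptions over 7 samples that share their scaling factors. For Top1, which had the smallest p, the 5 most similar of 9105 genes with a mean of at least 10 CPM were Cep55, Os9, Srp72, Cask and Smarca5, with r from 0.98 to 0.9992 and rho from 0.93 to 1. The 5 were picked for the highest r over 7 samples, so the size of these r values is no test of co-expression. None of the 5 passed between genotypes, with edgeR adjusted p-values from 0.314 for Smarca5 to 0.577 for Os9.

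Partner genes of the same pathways were examined with 7 lists of 63 genes, all of them tested. With edgeR and an adjusted p under 0.05, 0 of the 63 passed, as with DESeq2 and limma-voom. At an unadjusted p under 0.05 there were 6 (9.52%, against 10.6% across the table), 3 higher and 3 lower. The genotypes did not overlap in CPM for 2 of 13 THO and TREX genes, 0 of 5 TREX-2 genes and 1 of 4 Aquarius partners. Nor did they for 2 of 6 topoisomerase, 2 of 10 helicase, 1 of 5 ribonucleotide excision and 1 of 20 S-phase genes. Across the table the share without overlap was 10.1%.

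The THO and TREX list held 13 further genes of RNA packaging and export, and 0 had an unadjusted p under 0.05. Their median log2 fold change was -0.0029. The smallest p-values belonged to Poldip3, an export adaptor (log2 fold change -0.13, SE 0.060, edgeR adjusted p = 0.476), and Fyttd1, another adaptor (0.13, SE 0.073, edgeR adjusted p = 0.562). For both genes the genotypes did not overlap. The TREX-2 list of 5 genes had a median of 0.0017, led by Cetn3 (0.20, SE 0.12, edgeR adjusted p = 0.598) and Mcm3ap (0.10, SE 0.079, edgeR adjusted p = 0.687).

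Among the 4 partners of Aquarius in the intron-binding complex, the median was -0.022. Ppie, a prolyl isomerase of that complex, was the only one with an unadjusted p under 0.05. It was at 75.8, 79.4, 79.9 and 75.6 CPM in the Ddx41+/+ and at 67.0, 69.2 and 63.8 CPM in the Ddx41+/- samples, without overlap and in the direction opposite to Aqr. Its log2 fold change was -0.22 (SE 0.067, edgeR unadjusted p = 0.00469, adjusted p = 0.253). Isy1 was next, with -0.066 (SE 0.071, edgeR adjusted p = 0.796).

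The 6 other topoisomerase genes, with the Top3b partner Tdrd3 among them, had a median of 0.093. Top2a, the topoisomerase 2 of dividing cells, was at 776.1 to 821.7 CPM in Ddx41+/+ and at 829.2 to 924.8 CPM in Ddx41+/- samples (log2 fold change 0.15, SE 0.058, edgeR unadjusted p = 0.0181, adjusted p = 0.355). Top2b, its paralog in resting and dividing cells, had a log2 fold change of 0.12 (SE 0.059, edgeR adjusted p = 0.477), and neither gene overlapped between genotypes. The 10 genes of other helicases and Fanconi proteins linked to R-loops had a median of 0.081, with positive values in 8. The log2 fold changes given for the partner lists were not corrected for GC content and length, and the part of length in them was not tested. Blm, the Bloom syndrome helicase, was at 70.4 to 77.7 CPM in Ddx41+/+ and 81.4 to 88.5 CPM in Ddx41+/- samples (log2 fold change 0.21, SE 0.068, edgeR unadjusted p = 0.00665, adjusted p = 0.284). Dhx9, an RNA and hybrid helicase, had a log2 fold change of 0.13 (SE 0.068, edgeR adjusted p = 0.549) with overlap.

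The 5 genes that complete ribonucleotide excision after RNase H2 had a median of -0.0045 and 0 with an unadjusted p under 0.05, led by Rfc1 (0.085, SE 0.064, edgeR adjusted p = 0.683) and Lig1 (-0.068, SE 0.055, edgeR adjusted p = 0.705). S-phase genes were included because RNase H2 and topoisomerases also act during DNA replication, though not only then. The 20 genes had a median of -0.024, and their summed level was 5294 to 5372 CPM in Ddx41+/+ and 5199 to 5397 CPM in Ddx41+/- samples. Of the 20, 5 had a positive and 15 a negative log2 fold change, where 48.8% of all genes tested were positive. At an unadjusted p under 0.05, 1 was higher and 2 were lower, against 5.7% and 4.93% of all genes tested. In the 2 genes with the smallest p, Pola1 was higher (0.18, SE 0.075, edgeR unadjusted p = 0.0289, adjusted p = 0.404) and Rpa2 lower (-0.16, SE 0.069, edgeR unadjusted p = 0.0306, adjusted p = 0.408) on average.

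**Figure D4:**
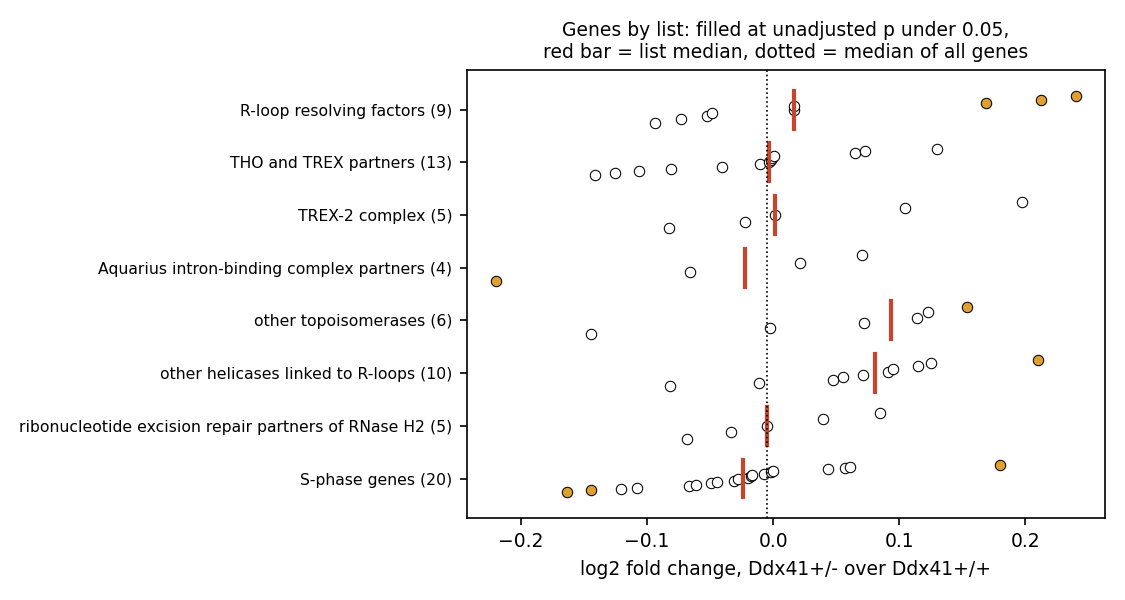
Log2 fold change of Ddx41+/- over Ddx41+/+ (x axis) of each gene, by list (number of genes in brackets), with the list median as a red bar, the median of all genes as a dotted line, and genes with an unadjusted p under 0.05 filled. List medians lie between -0.024 and 0.093, and no gene shown had an adjusted p under 0.05.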

How the data were processed

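Libraries were prepared from the RNA of sorted LSK cells with poly(A) selection. Per the labels, the submitters' processing notes list FastQC 0.11.7, HISAT2 2.0.5, featureCounts 1.5.2 and mm10. The authors deposited 1 table of unnormalized read counts by gene symbol, with totals of 32234499 to 43751290 per sample. The labels name a stranded kit and the study's methods another kit version. The strand setting, gene models and handling of shared reads are not given in the sources used here. Per the name of the deposited table, a Ddx41+/- library numbered 5 had been removed, and the reason is not stated.

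All 7 samples entered 1 edgeR model (version 4.0.16, R 4.3.3) with genotype as its only term. Library sizes were scaled by TMM (trimmed mean of M-values), low genes were dropped by filterByExpr, genotype was tested by quasi-likelihood F with robust dispersions, and p-values were BH-adjusted over 13340 genes. Each SE was obtained by dividing the size of the log2 fold change by the root of F. CPM used TMM-scaled library sizes, and log2 CPM a prior count of 2. Single genes were also compared by an exact permutation test over 35 splits. Each sample was taken to be 1 recipient mouse. Whether recipients shared a donor is not given, so p-values measure the spread between samples. Intervals of the genotype ratio come from the fit. Positions and lengths were from GENCODE M21 (GRCm38), where 23376 symbols had a direct match, 651 matched by an older name and 394 had none, and Ddx39a was counted under Ddx39. The script was tested on simulated data. Alternatives were DESeq2 1.42.0, limma-voom (limma 3.58.1), other scaling and filters, each sample left out, and 2 corrections chosen after seeing the data, in which per-sample lowess trends of log2 CPM on GC content and either longest-transcript or exon union length entered as offsets.

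Members and lists were chosen with earlier results of these data known. The text names all 9 members, Ddx41, the 2 genes with the smallest p in each partner list and the 5 genes most similar to the member with the smallest p, plus the member pairs with the highest and lowest r. The pairs given after removal of genotype means were chosen after their values were seen. Tdrd3, marker genes, overlapping neighbors and genes at 0 were named after their values were seen.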

Additional observations from a re-analysis of the deposited data

Results flagged for a closer look

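The 9 genes and Ddx41 were checked for a sample far from the rest among the 4 Ddx41+/+ samples only, since 3 Ddx41+/- samples are too few. Of these 10 checks 1 stood out, and chance alone gives about 1 in 20 groups. Top1 was at 181.1 CPM in Ddx41+/+ replicate 3 while the other 3 samples of that genotype reached at most 165.2 CPM (gap over range, Dixon's ratio 0.887, above the 95% critical value for 4 samples). Without that sample the Top1 log2 fold change was 0.25 (edgeR unadjusted p = 0.00371, adjusted p = 0.248).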

How the results depend on the processing

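No paired analysis was possible because the genotypes share no replicate number. None of the 9 genes had an adjusted p under 0.05 in any of 18 refits (162 values), where the smallest was 0.1, for Thoc2 without Ddx41+/- replicate 6. Aqr, Top1 and Thoc2 kept their direction in all 18. Rnaseh1 did too, but from -0.17 without Ddx41+/+ replicate 2 to -0.0069 with limma-voom sample quality weights, and its interval included no difference. The other 5 genes changed sign in 8 of the 162 values, each from a fit without 1 sample, and some of these came from the same fit. Their log2 fold changes over the 7 fits without 1 sample ranged from -0.14 to 0.021 (Rnaseh2a), -0.084 to 0.013 (Rnaseh2b, and 0.0034 without Ddx41+/- replicate 8), -0.033 to 0.052 (Rnaseh2c), -0.12 to 0.0069 (Thoc1) and -0.013 to 0.051 (Thoc5), so their sign is not determined. The number of the 9 genes with an unadjusted p under 0.05 ranged from 1 to 3 over these fits. It was 1 without Ddx41+/- replicate 7, where Aqr was left, and 1 without Ddx41+/- replicate 8, where Top1 was left. It was 2 with the correction for GC content and longest-transcript length and 0 with that for GC content and exon union length.

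The number of genes called across the table (29) was 15 with library totals only, 91 with no expression filter, 152 with DESeq2, 10 with limma-voom, 14 with a non-robust fit, 67 and 57 with the corrections for GC content and longest-transcript or exon union length, and 7 (without Ddx41+/+ replicate 2) to 41 (without Ddx41+/+ replicate 1) when 1 sample was left out. It was 16 without Ddx41+/+ replicate 3, and 14 and 9 without Ddx41+/- replicates 7 and 8. The cause was not tested. Ddx41 passed in all 18 alternatives. With the longest transcript as length, mean levels were 16.1 RPKM for Rnaseh1, 27.2 for Rnaseh2a, 14.6 for Rnaseh2b, 47.4 for Rnaseh2c, 32.8 for Aqr, 46.6 for Top1, 11.7 for Thoc1, 11.5 for Thoc2 and 30.8 for Thoc5, by construction. No detection limit was measured.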
